A study of Mus musculus with 25 samples.

Results

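The tumors described here are AT3 mammary tumors from mice given H3B-8800, a small molecule that binds the SF3B splicing complex, or vehicle. They were chosen by their labels, which name the tumor model and the treatment, and make up 5 of the 25 libraries of the series: 2 AT3 libraries from H3B-8800 mice and 3 from vehicle mice. The study transplanted triple-negative mammary tumors of 4 mouse models orthotopically into C57BL/6 or Balb/c females of 4 to 5 weeks, dosed them daily and sequenced polyadenylated RNA of whole tumors with a stranded kit. The AT3 hosts were C57BL/6. AT3 is 1 transplantable line, and the labels call it a nonresponder to the drug; how response was scored is not given in the sources used here. PyMT-M (8 libraries, C57BL/6 hosts) and 2208L (6 libraries, Balb/c hosts), both labelled responders and each with H3B-8800 and vehicle tumors, are used for comparison; T11 (6 libraries, Balb/c hosts), the other model, enters only the shared fit. No label says whether replicates came from separate mice or experiments, so p-values measure a spread between libraries that may be technical. In the tests of genes and introns that spread is shared over the 25 libraries, not taken from the 5 AT3 libraries alone.

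SF3B is the part of the U2 small nuclear ribonucleoprotein that holds the intron's branch point when an intron is first recognised. Molecules that bind it slow splicing unevenly, so that some introns stay in polyadenylated RNA while others are removed as usual. Interferon-stimulated genes, the second subject here, are switched on when interferon binds its receptor, and encode antiviral proteins, RNA sensors and chemokines. In tumors they are expressed by both the cancer cells and the immune cells among them.

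For each intron the deposited tables give the reads inside it and the reads overlapping its interval, here called intronic and overlapping reads. Retention of an intron is its intronic reads as a percent of its overlapping reads. The level of a gene is its overlapping minus intronic reads summed over its introns (spliced reads), given as CPM, its share of the scaled spliced reads of the library; these levels are not per length, so genes are not compared with each other. The AT3 libraries held 12026407 to 13138552 overlapping reads. H3B-8800 replicate 1 stood apart in shape: among long genes, 75.5% of the spliced reads of the first and last 3 introns lay in the last 3, against 57.7% in H3B-8800 replicate 2 and 58.9%, 61.9% and 66.7% in vehicle replicates 1, 2 and 3. Vehicle replicate 2 held lymphocyte transcripts, with a summed B cell marker level of 98.0 CPM, against 5.21 and 4.62 CPM in H3B-8800 tumors and 2.70 and 3.07 CPM in the other vehicle tumors. Of the AT3 epithelial markers, Krt8 had 72.5 and 36.1 CPM in H3B-8800 tumors, against 25.1, 14.3 and 19.5 CPM in vehicle tumors, while Epcam was at 3.13 and 0.770 CPM, against 0.159, 1.84 and 0 CPM in vehicle tumors. Vim, a mesenchymal filament gene, was at 3926 to 7331 CPM over the 5, so the libraries carry mesenchymal as well as keratin transcripts.

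In H3B-8800 replicate 2 alone, 7 genes with at least 20 CPM stood at least 4-fold above every other AT3 library, and all 7 lie on chromosome 11 between 101448412 and 101767358 (mm10). These genes were picked after their values were seen. Nbr1, an autophagy receptor gene, had 64.5 and 809 CPM in H3B-8800 tumors, against 92.4, 95.1 and 80.0 CPM in vehicle tumors. Dhx8, an RNA helicase gene of the spliceosome, had 71.8 and 959 CPM in H3B-8800 tumors, against 77.9, 79.9 and 85.4 CPM in vehicle tumors. Vat1, which lies inside the stretch, was not high in that library, at 169 and 192 CPM in H3B-8800 tumors against 130, 102 and 119 CPM in vehicle tumors. None of the 7 passed the test of H3B-8800 against vehicle.

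**Figure D1:**
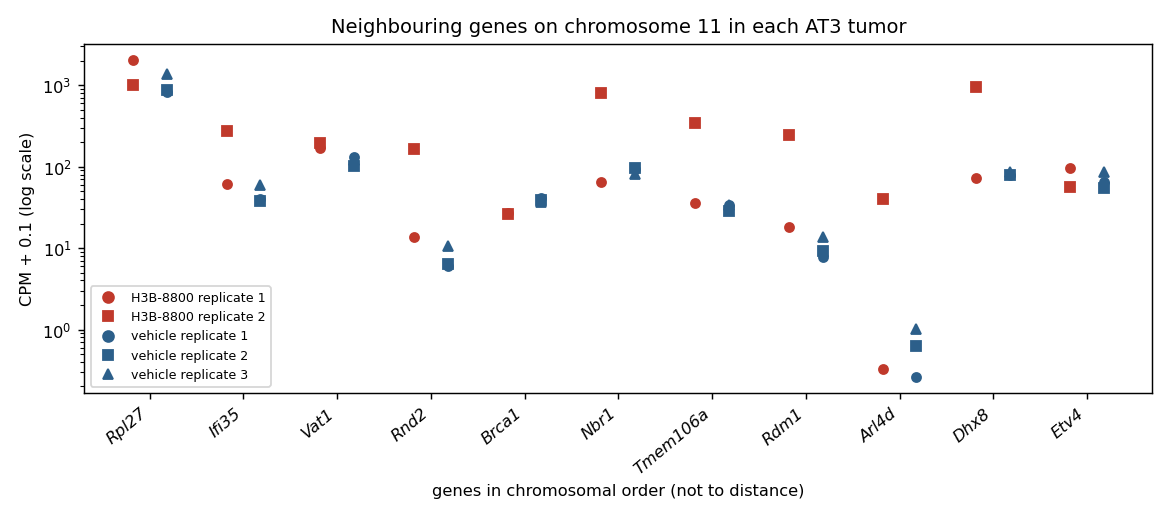
Level of neighbouring chromosome 11 genes in each AT3 tumor, in chromosomal order along the x axis, as CPM + 0.1 on a log y axis. Each point is 1 library, H3B-8800 and vehicle in different colors; H3B-8800 replicate 2 is high for 7 genes (Nbr1 809 CPM, Dhx8 959 CPM) while Vat1 (192 CPM), between Ifi35 and Rnd2, is not.

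Many introns, in 4843 genes, were retained more in H3B-8800 tumors. Of 52042 introns tested in 9859 genes, 10270 changed (19.7%): 10103 in 4843 genes rose (19.4%) and 167 in 158 genes fell (0.321%) at an adjusted p under 0.05 (edgeR quasi-likelihood test on intronic reads relative to the gene's spliced reads, Benjamini-Hochberg adjustment over all introns). The median log2 change over all tested introns was 1.10, and 81.0% of them were above 0. The share of all overlapping reads that were intronic was 14.2% and 20.4% in H3B-8800 tumors, against 9.63%, 15.9% and 10.1% in vehicle tumors. In that share the groups overlap, with vehicle replicate 2 above H3B-8800 replicate 1 (exact two-sided permutation test, p = 0.4). The pooled retention of the introns that rose was 19.3% and 34.1% in H3B-8800 tumors, against 6.99%, 12.1% and 6.96% in vehicle tumors. The groups do not overlap there, which the choice of introns fixes. H3B-8800 replicate 2 was above replicate 1 for 80.7% of them, and without replicate 2 the number of introns called in either direction was 2022, against 10270 with it. Without vehicle replicate 1 it was 4229 and without vehicle replicate 3 it was 5325.

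Short introns rose more often than long ones. Of introns up to 120 bases, 27.5% rose, and the share fell along the length classes through 25.8% (to 300 bases), 24.4% (to 1000 bases), 20.4% (to 3000 bases) and 14.2% (to 10000 bases) to 5.88% of longer introns. The median log2 change was 1.69 in the shortest class and 0.73 in the longest. First introns rose less often (11.9%) than internal (20%) or last introns (22.2%). Introns that were almost always removed in vehicle tumors of the other models, with up to 1% retention, rose in 32.4% of cases, and those retained above 50% in 11.2%. These shares are descriptions, since introns of 1 gene share its reads and the classes differ in depth: vehicle tumors held a median of 4.33 intronic reads per intron in the shortest class and 10.7 in the longest. In the class of up to 1% retention the AT3 vehicle median was 2.00. Introns were kept by a mean of 5 intronic reads over all 25 libraries, H3B-8800 libraries included. Introns with few reads in vehicle tumors could thus pass only where they were high, which can raise the share of rises in such classes.

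**Figure D2:**
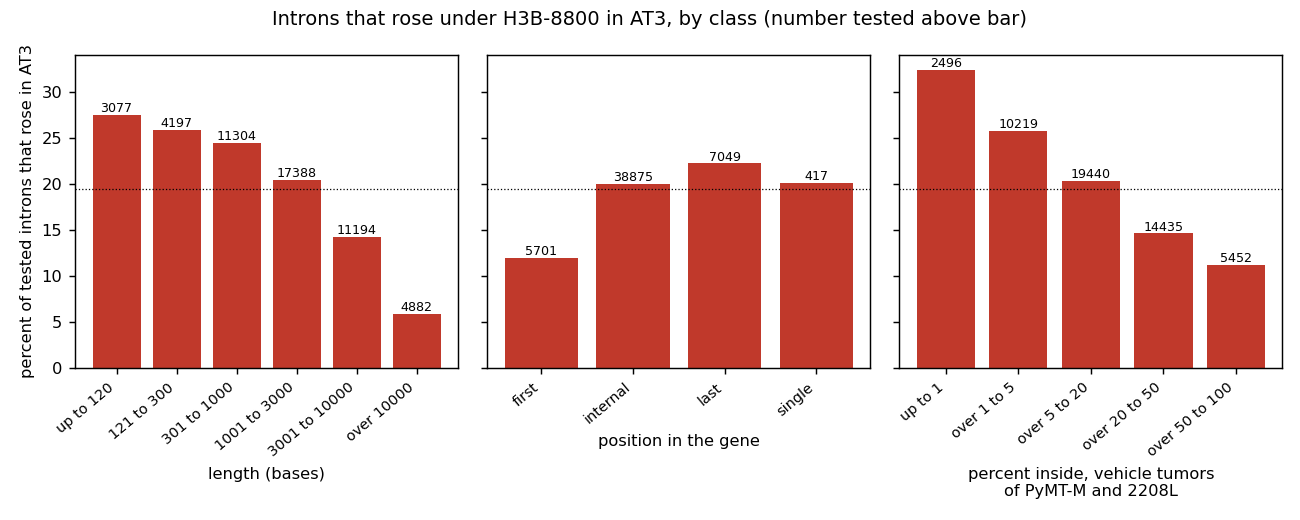
Percent of tested introns that rose in H3B-8800 AT3 tumors (y axis) by intron class (x axis: length, position in the gene, and retention in vehicle tumors of PyMT-M and 2208L). Bars start at 0, the dotted line is the 19.4% of all tested introns, and numbers are introns tested; the share is 27.5% for introns up to 120 bases and 5.88% for those over 10000 bases.

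The introns named for the largest rise in percentage points were chosen among called introns with no annotated exon and no overlap between groups. They were at 65.0% to 100% in H3B-8800 tumors and 0% to 28.6% in vehicle tumors. Their exon joins show what is lost when the intron stays: the 20 bases before the intron are in lower case and the 20 bases of the exon after it are in capitals, read 5′ to 3′ from GENCODE M21 transcripts (GRCm38). The introns are Amotl1 intron 11 at chr9:14548807-14550391 (minus strand), Ripk1 intron 2 at chr13:34009821-34010544 (plus strand) and Cdc42ep1 intron 2 at chr15:78847820-78849164 (plus strand).
Amotl1: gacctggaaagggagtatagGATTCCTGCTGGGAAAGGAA
Ripk1: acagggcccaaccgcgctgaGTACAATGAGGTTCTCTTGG
Cdc42ep1: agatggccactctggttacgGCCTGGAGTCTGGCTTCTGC

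Cdc42ep1 encodes an effector of the CDC42 GTPase. Its intron 2 was retained at 89.4% and 95.2% in H3B-8800 tumors, against 10.7%, 17.9% and 11.5% in vehicle tumors, from 56 to 607 overlapping reads per library (log2 6.13 ± 0.56 SE, edgeR adjusted p = 5.53e-09). The groups lie far apart, which the choice of introns favored, and the smaller coverage was in vehicle tumors. Ripk1 encodes a kinase of death receptor signalling. Its intron 2 was retained at 65.0% and 81.9% in H3B-8800 tumors, against 5.56%, 0% and 0% in vehicle tumors, from 34 to 138 overlapping reads. Amotl1, a tight junction and Hippo pathway gene, had 78.1% and 84.5% retention of intron 11 in H3B-8800 tumors, against 0%, 7.14% and 0% in vehicle tumors. Introns of Abr, Notch2, Wdfy3, Cdc14a, Aak1 and Prr12 had the same form, with 69.9% to 100% in H3B-8800 tumors and 0% to 28.6% in vehicle tumors. Fam193a intron 6 was retained at 80.0% and 95.0% in H3B-8800 tumors, against 6.25%, 6.25% and 16.7% in vehicle tumors, and lost its call without H3B-8800 replicate 2. Of the 24 introns named for their AT3 change, here and below, 10 kept their call without each of the 5 libraries in turn.

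**Figure D3:**
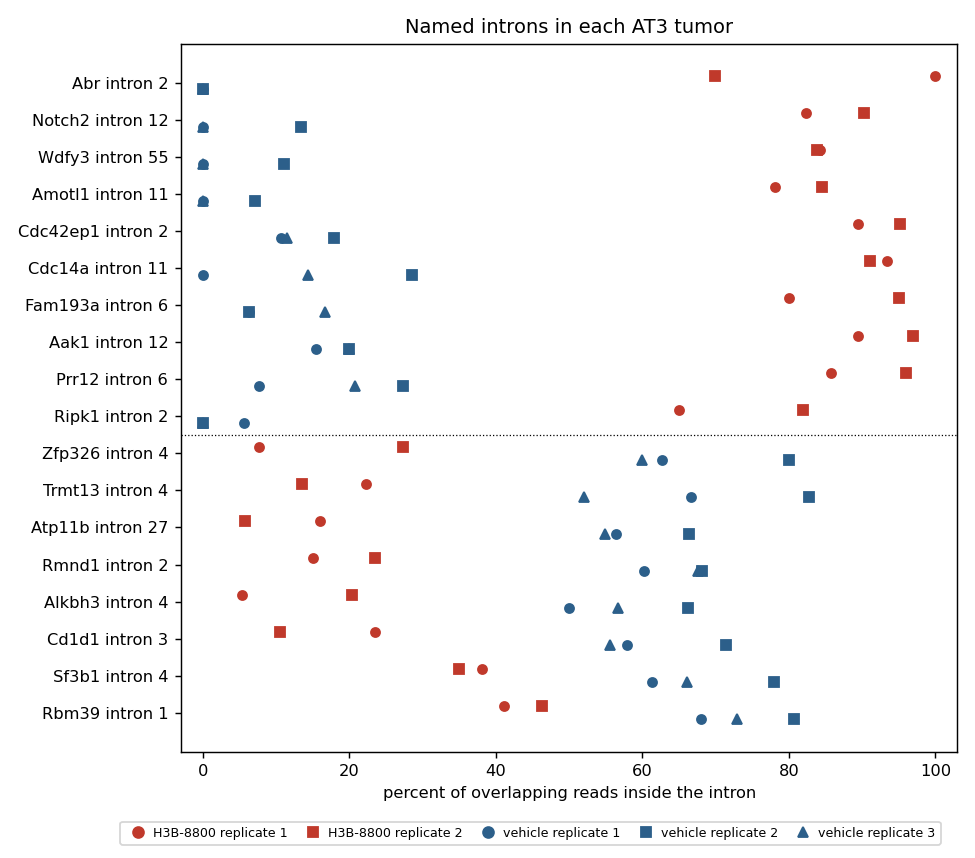
Retention in percent (x axis) of named introns (y axis) in each AT3 tumor, 1 point per library; the dotted line separates introns that rose from those that fell, H3B-8800 and vehicle in different colors. Cdc42ep1 intron 2 is at 89.4% and 95.2% in H3B-8800 tumors and 10.7% to 17.9% in vehicle tumors, while Rmnd1 intron 2 lies the other way.

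A smaller set of introns was retained less in H3B-8800 tumors. Rmnd1 encodes a mitochondrial translation protein, and its intron 2 had 15.0% and 23.5% retention in H3B-8800 tumors, against 60.2%, 68.2% and 67.6% in vehicle tumors (log2 -3.23 ± 0.76 SE, edgeR adjusted p = 0.00336). The groups do not overlap, which the choice of introns required, and the call held without each of the 5 libraries in turn. Zfp326, Trmt13, Atp11b, Alkbh3 and Cd1d1 also held a falling intron, at 5.26% to 27.3% in H3B-8800 tumors and 50% to 82.8% in vehicle tumors. Their calls were less stable: Zfp326 kept its call in 4 of the 5 fits without 1 library, Trmt13 in 3, and Atp11b, Alkbh3 and Cd1d1 in 2 each. Of the 167 falling introns, 59.9% hold an annotated exon of another transcript, against 42.3% of all tested introns and 36.5% of those that rose. Reads of such an exon count as intronic. The falling introns of Rmnd1, Zfp326, Trmt13, Atp11b, Alkbh3 and Cd1d1 all hold one, so their percentages may include reads of that exon.

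Falling introns of splicing genes are given next as chosen examples, with no count over such genes. Those of Sf3b1, Rbm39 and Srsf5 hold an annotated exon as well. Sf3b1 encodes the subunit that H3B-8800 binds; its intron 4 had 38.1% and 35.0% retention in H3B-8800 tumors, against 61.3%, 78.0% and 66.1% in vehicle tumors. Rbm39, a splicing factor gene, had 41.1% and 46.3% retention of intron 1 in H3B-8800 tumors, against 67.9%, 80.7% and 72.9% in vehicle tumors (log2 -2.07 ± 0.49 SE, edgeR adjusted p = 0.00327). Both introns were lower in each H3B-8800 tumor than in any vehicle tumor, and both calls were lost without H3B-8800 replicate 1. Intron 1 of Rbm39 holds an exon of 73 bases, at chr2:156178880-156178952 (minus strand, GRCm38), that a GENCODE M21 transcript annotated for nonsense-mediated decay includes. Its stop codon, after 69 coding bases, is in capitals.
Rbm39: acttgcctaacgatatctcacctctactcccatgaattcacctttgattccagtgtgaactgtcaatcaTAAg

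Srsf5, an SR protein gene, moved in both directions: its intron 4 fell, at 69.3% and 61.1% in H3B-8800 tumors against 82.1%, 89.7% and 83.0% in vehicle tumors, while its intron 1 rose. The intron 4 call was lost without H3B-8800 replicate 2, and the intron 1 call without that library, vehicle replicate 1 or vehicle replicate 3. Both introns hold an annotated exon, as do Trp53 intron 7 and Mdm2 intron 6, described next. Trp53, the p53 gene, likewise had a falling intron 1 and a rising intron 7, which was at 28.1% and 46.5% in H3B-8800 tumors against 7.81%, 14.9% and 11.05% in vehicle tumors. The intron 1 call was lost without vehicle replicate 2 or either H3B-8800 replicate, and the intron 7 call without vehicle replicate 1 or H3B-8800 replicate 2. Mdm2, whose product degrades p53, had a rising intron 6, at 41.4% and 60.9% in H3B-8800 tumors against 13.2%, 33.3% and 11.6% in vehicle tumors; its call was lost without vehicle replicate 1, vehicle replicate 3 or H3B-8800 replicate 2. The spliced level of Trp53 did not pass the test, at 150 and 148 CPM in H3B-8800 tumors against 149, 122 and 146 CPM in vehicle tumors.

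Introns that rose with H3B-8800 in both PyMT-M and 2208L tumors also tended to be higher in AT3. Of 11539 such introns, 5985 (51.9%) rose in AT3, beside 19.4% of all tested introns, and they made up 59.2% of the introns that rose in AT3. Their pooled retention was 19.0% and 34.3% in AT3 H3B-8800 tumors, against 9.02%, 16.0% and 8.43% in AT3 vehicle tumors. The groups do not overlap, and the exact two-sided permutation test gave p = 0.2, the smallest that 2 against 3 libraries allow. The same introns were at 40.3% to 47.2% in the H3B-8800 tumors of PyMT-M and 21.6% to 25.1% in those of 2208L. In vehicle tumors they were at 7.06% to 13.8% in PyMT-M and 4.60% to 7.84% in 2208L. The choice of introns fixes the rise in these 2 models. No intron passed the test of the difference between the AT3 change and the mean change of the other 2 models (edgeR, 0 of 52042 introns, 0%), with 3706 introns (7.12%), 1917 of them lower in AT3 (3.68%), at an unadjusted p under 0.05, 11 called by DESeq2 and 39 by limma.

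At the level of spliced reads far fewer genes were called. Of 13001 genes tested, 39 changed (0.3%): 16 rose (0.123%) and 23 fell (0.177%) at an adjusted p under 0.05 (edgeR quasi-likelihood test, Benjamini-Hochberg adjustment), and 1690 (13%) had an unadjusted p under 0.05. With total spliced reads in place of TMM scaling 6 rose and 53 fell, 59 in all, and the median over all genes moved by -0.196 on the log2 scale. The count depended on single libraries, at 8, 9 and 15 genes without vehicle replicates 1, 2 and 3, 7 without H3B-8800 replicate 1 and 464 without H3B-8800 replicate 2. In the last 2 fits the lone AT3 H3B-8800 library is assumed to vary like the other groups. Of the 39, 1 gene was called without each of the 5 libraries in turn, 6 in 4 of the 5 fits and 8 in none.

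Interferon-stimulated genes were lower in H3B-8800 tumors than in vehicle tumors. Of 34 listed genes 33 were tested; 5 fell and 0 rose, beside 0.177% and 0.123% of all genes. At an unadjusted p under 0.05, 26 were lower and 1 higher, beside 5.63% and 7.37% of all genes, and in 26 every H3B-8800 tumor was below every vehicle tumor, beside 13.1% of all genes. The list's median log2 change was -1.97, against 0.00 over all genes. The summed level of the list, set by its few abundant members, overlapped between groups, at 587 and 626 CPM in H3B-8800 tumors against 574, 655 and 931 CPM in vehicle tumors. Ifi35, a list member in the chromosome 11 stretch high in H3B-8800 replicate 2, had 61.5 and 274 CPM in H3B-8800 tumors. In vehicle tumors Ifi35 had 39.7, 38.1 and 58.6 CPM. Ifi35 thus made up a large part of the summed level in H3B-8800 replicate 2, and a sum without it was not taken. In whole tumors, fewer cells of a type and less RNA per cell cannot be told apart.

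Isg15 encodes a ubiquitin-like protein attached to other proteins after interferon. It had 1.51 and 1.93 CPM in H3B-8800 tumors, against 8.33, 6.48 and 17.8 CPM in vehicle tumors (log2 -2.65 ± 0.55 SE, edgeR adjusted p = 0.0382). Both H3B-8800 tumors were below every vehicle tumor, and the call was lost without vehicle replicate 1, vehicle replicate 3 or H3B-8800 replicate 1. Usp18, which encodes the protease that removes ISG15, had 1.39 and 1.44 CPM in H3B-8800 tumors, against 10.5, 11.3 and 25.5 CPM in vehicle tumors (log2 -3.46 ± 0.71 SE, edgeR adjusted p = 0.0382). The groups did not overlap, but the call was lost without any 1 of the 5 libraries, with the direction kept.

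Transcription factors of the pathway were low as well. Irf7, an amplifier of type I interferon expression, had 3.71 and 1.35 CPM in H3B-8800 tumors, against 13.6, 13.5 and 22.1 CPM in vehicle tumors (log2 -2.72 ± 0.52 SE, edgeR adjusted p = 0.0318); this call too was lost without any 1 library. Irf9, a transcription factor of the interferon response, had 5.79 and 9.24 CPM in H3B-8800 tumors, against 18.2, 21.9 and 26.9 CPM in vehicle tumors (log2 -1.56 ± 0.25 SE, edgeR adjusted p = 0.00884). The Irf9 call was lost only without H3B-8800 replicate 1. Irf9 also had 4 of 5 tested introns retained more, beside 19.4% of all tested introns, in a test relative to its own spliced reads, which fell. Its intron 4 was at 57.1% and 63.6% in H3B-8800 tumors against 0%, 5.56% and 6.90% in vehicle tumors.

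Among sensors and effectors, Ifih1, which encodes the double-stranded RNA sensor MDA5, had 1.51 and 1.25 CPM in H3B-8800 tumors, against 4.84, 5.86 and 5.68 CPM in vehicle tumors (log2 -1.98 ± 0.43 SE, edgeR adjusted p = 0.0495), a call lost without any 1 of the 5 libraries. The antiviral GTPase gene Mx2 had 1 and 0 reads in H3B-8800 tumors, and 1.75, 3.94 and 3.97 CPM in vehicle tumors. On overlapping reads, which include its introns, of which 4 of 7 tested rose, Mx2 was not called (log2 -2.28, edgeR adjusted p = 0.101). Ifit1, an antiviral RNA-binding gene, had no spliced read in either H3B-8800 tumor and 0.952, 1.40 and 1.26 CPM in vehicle tumors, at least 7.64-fold lower against a floor of 3 reads over the group. With Ifit1 at that bound the list's median stays -1.97. Of 21 genes of double-stranded RNA sensing, 2 fell (Irf7 and Ifih1) and 7 were lower at an unadjusted p under 0.05, beside 0.177% and 5.63% of all genes, with a median log2 change of -0.65 against 0.00 over all genes. Without any 1 vehicle library, or without H3B-8800 replicate 1, 0 were called (edgeR), with 6 to 8 lower at an unadjusted p under 0.05.

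The summed level of cytotoxic lymphocyte markers was 15.6 and 12.1 CPM in H3B-8800 tumors, against 32.1, 37.6 and 46.2 CPM in vehicle tumors, but 0 of 9 tested members passed the edgeR test and 1 was lower at an unadjusted p under 0.05, beside 5.63% of all genes. Gzmb, a killer cell protease gene, had 1.04 and 1.16 CPM in H3B-8800 tumors, against 4.05, 5.08 and 6.58 CPM in vehicle tumors. The summed level of macrophage markers was higher, at 3122 and 3176 CPM in H3B-8800 tumors against 2551, 1762 and 1637 CPM in vehicle tumors. However, 0 of 16 tested macrophage markers passed the edgeR test and 2 were higher at an unadjusted p under 0.05, beside 7.37% of all genes. Their median log2 change was 0.17, with 12 above 0 and 4 below. The part of these cells in the interferon result was not tested.

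**Figure D4:**
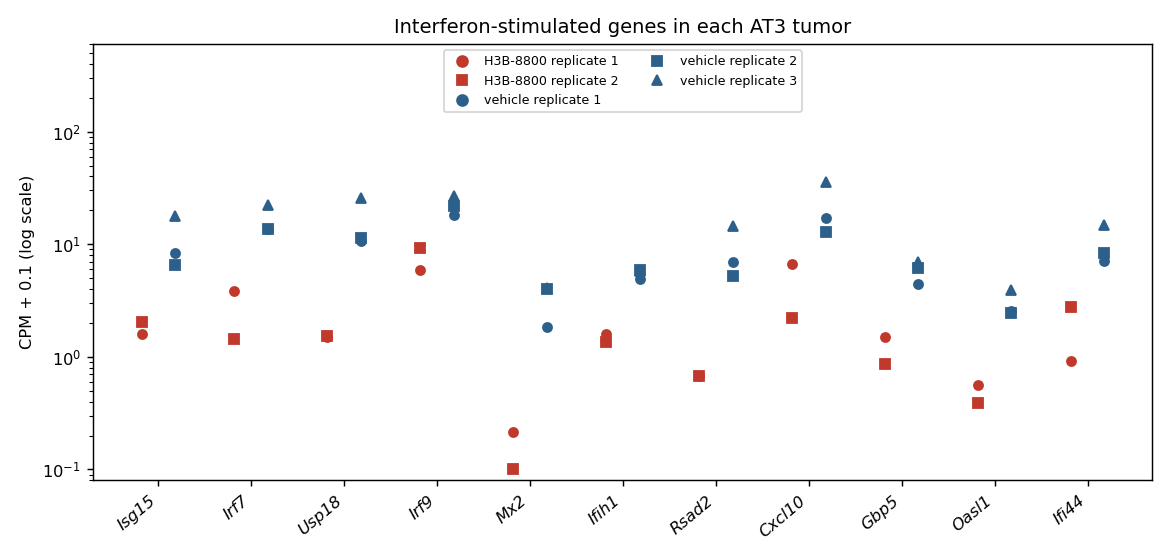
Level of interferon-stimulated genes (x axis) in each AT3 tumor as CPM + 0.1 on a log y axis, 1 point per library, H3B-8800 and vehicle in different colors. Isg15 is at 1.51 and 1.93 CPM in H3B-8800 tumors and 6.48 to 17.8 CPM in vehicle tumors.

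The list was not lower as a group in the other models. The list's median log2 change was 1.07 in PyMT-M, where 18 members rose and 1 fell, beside 10.2% and 14.6% of all genes. It was 0.37 in 2208L, where 3 rose and 0 fell, beside 4.67% and 5.67% of all genes. The difference between the AT3 change and the mean change of the other 2 models, in which model, response label and, for 2208L, host strain cannot be told apart, was called for 30 genes (0.231%) of 13001, 14 of them lower in AT3 (0.108%), and 9 of these are interferon-stimulated genes on the list. Rsad2, which encodes the antiviral enzyme viperin, had 0.579 and 0.578 CPM in AT3 H3B-8800 tumors, against 6.90, 5.08 and 14.4 CPM in AT3 vehicle tumors. In PyMT-M it had 13.5 to 79.3 CPM in H3B-8800 tumors and 3.46 to 17.5 CPM in vehicle tumors (difference between models -5.13 ± 1.03 SE on the log2 scale, edgeR adjusted p = 0.0448). The Rsad2 call held in 7 of the 19 fits that left out 1 library. Cxcl10, a chemokine that draws T cells, had 6.605 and 2.12 CPM in AT3 H3B-8800 tumors, against 17.1, 12.8 and 35.3 CPM in AT3 vehicle tumors. In PyMT-M it had 8.98 to 14.2 CPM in H3B-8800 tumors and 2.32 to 2.98 CPM in vehicle tumors, so the direction was opposite. In 2208L it had 28.3 to 35.0 CPM in H3B-8800 tumors and 18.2 to 25.2 CPM in vehicle tumors, a smaller rise. The difference for Cxcl10 was -3.62 ± 0.63 SE (edgeR adjusted p = 0.0244), and the call was lost without AT3 vehicle replicate 3.

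**Figure D5:**
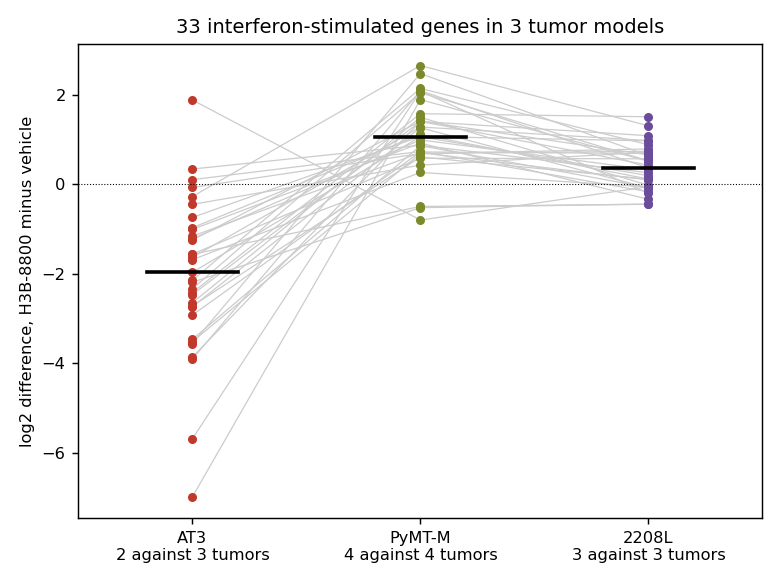
Log2 change of 33 interferon-stimulated genes, H3B-8800 over vehicle (y axis), in AT3, PyMT-M and 2208L tumors (x axis); each point is a gene, thin lines join the same gene and black bars are medians. The lowest 2 AT3 points, Ifit1 and Mx2, depend on the prior count. The list's median is -1.97 in AT3, 1.07 in PyMT-M and 0.37 in 2208L.

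Promoters of many interferon-stimulated genes on the list carry a motif of the interferon response. The letters GAAA, any 2 bases and GAAA again or, on the other strand, TTTC, any 2 bases and TTTC again were searched in the 250 bases before the start of each RefSeq gene (GRCm38.p6). They were found in 15 of 24 list members with a promoter window (62.5%), against 2.98% of all 32851 windows, and in 1 of the 19 windows of genes that fell (Isg15). That 1 window is 5.26%, beside 3.26% for all tested genes. Rsad2, Cxcl10 and Gbp5, shown with Isg15, were not among the genes called lower in AT3. The windows shown are Isg15 at chr4:156200845-156200926 (minus strand), Rsad2 at chr12:26456533-26456602 (minus strand), Cxcl10 at chr5:92349063-92349132 (minus strand) and Gbp5 at chr3:142496739-142496808 (plus strand), each 5′ to 3′ along its gene, with the motif in capitals.
Isg15: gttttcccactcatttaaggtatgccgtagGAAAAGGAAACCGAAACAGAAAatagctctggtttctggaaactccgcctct
Rsad2: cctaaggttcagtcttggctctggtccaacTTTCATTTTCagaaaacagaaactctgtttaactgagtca
Cxcl10: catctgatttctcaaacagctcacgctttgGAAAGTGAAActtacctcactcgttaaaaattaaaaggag
Gbp5: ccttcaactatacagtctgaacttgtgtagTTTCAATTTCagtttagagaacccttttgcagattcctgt

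Few listed splicing genes were called: 1 of 18 SF3B and U2 genes, 1 of 20 SR proteins and partners, 0 of 21 hnRNP genes, 0 of 8 kinases and 0 of 9 minor spliceosome genes, beside 0.3% of all genes. In these 5 lists 6, 13, 7, 0 and 3 members had an unadjusted p under 0.05 in either direction, beside 13% of all genes. Luc7l3, a U1-associated SR-like protein gene, had 346 and 310 CPM in H3B-8800 tumors, against 154, 163 and 174 CPM in vehicle tumors (log2 1.00 ± 0.12 SE, edgeR adjusted p = 0.000982), and was the 1 gene called without each library in turn. Sf3b3, a subunit of the complex that H3B-8800 binds, had 977 and 1050 CPM in H3B-8800 tumors, against 516, 575 and 560 CPM in vehicle tumors (log2 0.88 ± 0.14 SE, edgeR adjusted p = 0.00767), a call lost without vehicle replicate 1. Both genes were higher in each H3B-8800 tumor than in any vehicle tumor. Sf3b1 itself did not pass, at 650 and 765 CPM in H3B-8800 tumors against 477, 520 and 510 CPM in vehicle tumors (edgeR adjusted p = 0.254). The 13 SR proteins and partners at an unadjusted p under 0.05 were all higher, beside 7.37% of all genes, with a median log2 change of 0.43 on spliced reads but -0.06 on overlapping reads.

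Rbm5, which encodes a splicing regulator, fell: it had 73.4 and 73.9 CPM in H3B-8800 tumors, against 159, 191 and 166 CPM in vehicle tumors (log2 -1.22 ± 0.19 SE, edgeR adjusted p = 0.00782), a call lost without H3B-8800 replicate 1. Of its 17 tested introns 10 rose, beside 19.4% of all tested introns. Intron 14 of Rbm5 was at 67.2% and 80.1% in H3B-8800 tumors against 13.9%, 21.2% and 12.8% in vehicle tumors. Sf1, which encodes the protein that first binds the branch point, had 109 and 155 CPM in H3B-8800 tumors, against 202, 224 and 205 CPM in vehicle tumors, and 4 of its 9 tested introns rose. Slc9a8, a sodium-proton exchanger gene, had 6.37 and 10.01 CPM in H3B-8800 tumors, against 22.3, 27.8 and 18.8 CPM in vehicle tumors, and 3 of its 11 tested introns rose. Of the 22 genes that fell and had a tested intron, 18 held a rising intron, against 4 of the 14 that rose. Among all 9859 genes with a tested intron, 4843 held a rising one. The intron test is relative to the gene's spliced reads, so fewer spliced reads raise an intron's change unless its intronic reads fall as well. Falling genes and rising introns are thus partly tied by the measures. A retained intron takes reads out of the spliced level by construction: the median log2 change was 0.12 in genes with no rising intron and -0.23 in genes with 5 or more, but -0.00 and -0.06 on overlapping reads. Of the 39 called genes, 18 were also called on overlapping reads, 12 lower and 6 higher, Isg15, Irf7, Usp18, Irf9, Rbm5, Luc7l3 and Sf3b3 among them.

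Among other genes that rose, Rabggtb, a subunit of the enzyme that attaches lipids to Rab proteins, had 456 and 279 CPM in H3B-8800 tumors, against 136, 154 and 192 CPM in vehicle tumors. Nhlrc2 had 32.8 and 49.9 CPM in H3B-8800 tumors, against 23.1, 22.1 and 17.4 CPM in vehicle tumors. Fbxl18, an F-box protein gene, rested on 1 library, with 26.9 and 3.18 CPM in H3B-8800 tumors against 1.82, 2.54 and 1.44 CPM in vehicle tumors. Acyp2, Map3k15, Sin3b, Adam15 and Tatdn2 rose by 0.82 to 1.74 on the log2 scale. Among other genes that fell, Rgs19, a regulator of G protein signalling, had 3.01 and 4.14 CPM in H3B-8800 tumors, against 9.68, 10.3 and 10.6 CPM in vehicle tumors. Rin1, a RAS effector gene, and Myo19, a mitochondrial myosin gene, fell by 1.76 and 1.26 on the log2 scale. Without H3B-8800 replicate 1 the calls of Slc9a8, Rabggtb and Rgs19 were lost; those of Sf1, Nhlrc2, Fbxl18, Acyp2, Map3k15, Sin3b, Adam15, Tatdn2, Rin1 and Myo19 held in 0 to 2 of the 5 fits.

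Lists of cell death, checkpoint and repair genes held no calls. No member of the p53 target (19 tested), BCL2 family (13), death receptor and necroptosis (17), nonsense-mediated decay (16), mitosis (24) or DNA repair (27) lists passed the edgeR test, with 4, 4, 2, 1, 0 and 1 members at an unadjusted p under 0.05 in either direction, beside 13% of all genes. In 14 of the 24 mitosis genes and 12 of the 27 DNA repair genes every H3B-8800 tumor was below every vehicle tumor, beside 13.1% of all genes, with list medians of -0.26 and -0.21. Mcl1, a survival gene of the BCL2 family, had 53.5 and 46.3 CPM in H3B-8800 tumors, against 43.6, 40.2 and 42.1 CPM in vehicle tumors (log2 0.25 ± 0.15 SE, edgeR adjusted p = 0.501). Bcl2l14, a BCL2-like gene that was not on the list, was called lower (log2 -5.76 ± 1.14 SE, edgeR adjusted p = 0.0382). Its call was lost without vehicle replicate 1, vehicle replicate 2 or either H3B-8800 replicate. Of 23 oxidative phosphorylation genes, 11 were higher at an unadjusted p under 0.05, beside 7.37% of all genes, with a median log2 change of 0.42, but without H3B-8800 replicate 1 these were 0 and 0.02.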

How the data were processed

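Polyadenylated RNA of whole tumors was sequenced in 25 libraries. The authors deposited, for each library, a table of introns with read counts inside and overlapping each one, and RPKM values by the authors, not used here; the submitters' processing notes name HISAT2 2.0.4 and the builds mm10 and hg38, and the counting tool is not given in the sources used here. Spliced reads (overlapping minus intronic) were summed per gene. Genes with at least 1 CPM in 2 libraries and introns averaging 5 or more intronic and 10 or more spliced reads were tested with edgeR 4.0.16 (robust quasi-likelihood, TMM, 8 group means over 25 libraries; introns with the gene's spliced reads as offset) in R 4.3.3, at an adjusted p of 0.05. DESeq2 1.42.0 and limma 3.58.1 were alternatives. Named genes were the 10 largest changes in each direction among called genes with at least 5 CPM in a group. Other called genes and list members were named as well. Named introns were the 10 largest rises and 6 largest falls in percentage points, 1 per gene. These were called introns with at least 10 overlapping reads in every AT3 library and no overlap between groups. The named rises had to hold no annotated exon, while the falls were not filtered for one. The members and lists were chosen with earlier results of these data known. Intron GC content and splice site sequence were not analysed here. A gene of the interferon response is not reported here.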

Additional observations from a re-analysis of the deposited data

Results flagged for a closer look

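The H3B-8800 effect in AT3 differed from the mean effect in PyMT-M and 2208L for 30 genes, by the test of the difference itself (edgeR, adjusted p under 0.05). Values here are that difference on the log2 scale, AT3 minus the other 2 models, so a negative one means a lower change in AT3. Among interferon-stimulated genes it was -3.39 for Isg15, -3.08 for Irf7, -3.86 for Usp18, -3.62 for Cxcl10, -3.96 for Gbp5, -3.63 for Oasl1, -5.13 for Rsad2 and -3.71 for Ifi44. For Mx2 it was -6.63, a value that depends on the prior count, since the AT3 H3B-8800 libraries held 1 and 0 reads. Ifih1 was at -2.21, Phf11d at -3.61 and Fcgr4, an Fc receptor gene, at -2.68. Mak16 and Bnip2 were at -0.89 and -1.03. Egln3, an oxygen sensor gene, was at 2.20 and had 118 and 143 CPM in AT3 H3B-8800 tumors against 102.8, 81.0 and 127 CPM in AT3 vehicle tumors; its change was -1.33 in PyMT-M and -2.40 in 2208L. Cul7 was at 1.25, Map3k15 at 1.72, Csn3 at 3.94, Nr2f1 at 3.12 and Lrwd1 at 1.40. Pafah1b3 was at 1.51, Spice1 at 1.27, Ints7 at 0.98, Sema3b at 1.98, Gpsm2 at 1.17, Rab3gap2 at 0.79 and Tada3 at 1.39. Sh2d4b was at 4.53, with 0 reads in 2 AT3 vehicle tumors. Rdm1 was at 5.49 and Rnd2 at 4.96, and both belong to the chromosome 11 genes that were high in AT3 H3B-8800 replicate 2.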

How the results depend on the processing

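The number of genes called in AT3 was 39, and 273 with DESeq2, 59 with total spliced reads for scaling, 24 with no filter on low counts, 9 with the median over introns, 72 without the T11 libraries, 110 with limma and 75 on overlapping reads, an alternative chosen after seeing the data. It was 0 in a fit of the AT3 libraries alone, where 1021 genes had an unadjusted p under 0.05. Leaving out 1 library gave 7 to 464. The interferon-stimulated list kept a negative median over 16 alternatives, from -2.18 to -1.53, while 0 to 18 of its members were called lower. Genes whose effect differed between models numbered 30, and 249 with DESeq2, 14 with total spliced reads, 18 with the upper quartile, 14 with no filter, 9 with the median over introns and 112 without T11; leaving out 1 library gave 3 to 319. Introns called in AT3 numbered 10270, and 6298 with at least 20 reads, 6701 with no annotated exon and 6491 with the AT3 libraries alone; leaving out 1 library gave 2022 to 11997. Introns whose effect differed between models numbered 0, and 11 with DESeq2, 39 with limma and 0 to 3 without 1 library. Replicate numbers did not pair the samples (correlation of deviations -0.066 and 0.056 in AT3); with the replicate block the counts were 9 genes and 3453 introns in AT3 and 0 genes for the difference between models. Of 622 values of single called genes under alternatives, 333 stayed past the threshold and 289 did not, and none changed sign. T11 vehicle replicates 2 and 3 had higher retention than the T11 H3B-8800 libraries, against their labels. With 2 H3B-8800 libraries, 1 of which stood apart in shape, precision is set by their number. The causes of these changes were not tested.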

Other observations

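The chromosome 11 genes that were high in AT3 H3B-8800 replicate 2 were also high in some PyMT-M vehicle tumors: the highest of the other 24 libraries had 962 CPM of Nbr1, 876 CPM of Dhx8 and 235 CPM of Rdm1, against 809, 959 and 243 CPM in AT3 H3B-8800 replicate 2. Brca1, which lies between Rnd2 and Nbr1, was not high in that replicate, at 26.9 and 25.8 CPM in AT3 H3B-8800 tumors against 41.2, 38.6 and 37.2 CPM in AT3 vehicle tumors. Ifi35, an interferon-stimulated gene of this stretch, had 61.5 and 274 CPM in AT3 H3B-8800 tumors, against 39.7, 38.1 and 58.6 CPM in AT3 vehicle tumors.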
